A study of Mus musculus with 9 samples.

Results

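The 10 genes described here (Dntt, Rag1, Il7r, Notch1, Satb1, Ikzf1, Blnk, Ltb, Ly6d and Arpp21) are genes that blood progenitors switch on, or raise, on the way to lymphocytes. They were taken by symbol from the gene list of the matrices, where all 10 were found, each on 1 row of 31053. They were measured by droplet single-cell RNA-seq in LSK cells, the lineage-negative, cKit+ Sca1+ fraction of C57BL/6 bone marrow that holds stem cells and early progenitors. The 3 groups were young control mice 10 to 12 weeks old, aged control mice over 80 weeks old, and aged mice of the same age given CASIN, an inhibitor of the small GTPase Cdc42, by 4 intraperitoneal injections of 25 mg/kg, 1 every 24 h. Both control groups received the cyclodextrin vehicle, so every group was injected. Each group had 3 samples. Young 1 and 2, aged 1 and CASIN 1 and 2 were sequenced in batch 1, and young 3, aged 2 and 3 and CASIN 3 in batch 2. All cells had been frozen and thawed. The labels do not say whether a sample is 1 mouse or a pool, so the p-values below measure the spread between these samples.

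Lymphoid priming is the low and gradual appearance of lymphocyte genes in progenitors that have not yet committed to a lineage. It is best known in the LSK cells that carry Flt3, a cytokine receptor gained as stem cells become multipotent progenitors. Among the 10 genes, Dntt and Rag1 encode enzymes that act on the rearranging antigen receptor genes, Il7r and Notch1 encode receptors that lymphoid precursors depend on, and Satb1 and Ikzf1 encode nuclear proteins required for normal lymphoid development. Blnk encodes a B-cell receptor adaptor, Ltb a membrane-bound cytokine of the tumour necrosis factor family, Ly6d a surface protein that marks B-lineage-biased lymphoid progenitors, and Arpp21 a phosphoprotein found in early B and T precursors.

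All 10 are protein-coding genes in the mouse GRCm38 annotation (GENCODE vM21, matched by Ensembl ID). Dntt lies at chr19:41029275-41059525 on the plus strand and Blnk at chr19:40928927-40994535 on the minus strand, so these 2 members are neighbours. Rag1 lies at chr2:101638282-101649501 and Notch1 at chr2:26457903-26516663, both on the minus strand. Satb1 lies at chr17:51736187-51833290 on the minus strand and Ltb at chr17:35194439-35196320 on the plus strand. Il7r lies at chr15:9505788-9530176 and Ly6d at chr15:74762056-74763620, both on the minus strand. Ikzf1 lies at chr11:11685003-11772926 on the plus strand and Arpp21 at chr9:112065091-112235938 on the minus strand. Satb1, Rag1, Notch1, Ltb and Arpp21 overlap other annotated genes on their own strand (for Rag1, B230118H07Rik), and how this affected their counts was not tested.

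Upstream windows of 3 members, Dntt, Rag1 and Satb1, are shown, partly because these genes were found in the same cells. With cells read at equal depth, 1266 held both Dntt and Satb1, and 20 of only 24 Rag1-positive cells held Dntt. The windows are also shown because Ikzf1, the member whose level differed between the groups, encodes Ikaros, a zinc-finger protein whose DNA motif has the core GGGAA. Each is the 250 bases before a RefSeq transcript start (GRCm38.p6), written on the strand of the gene, with the bases of GGGAA on either strand in capitals. The Dntt window is chr19:41029025-41029274, the Rag1 window chr2:101649533-101649782 and the Satb1 window chr17:51833291-51833540.
Dntt: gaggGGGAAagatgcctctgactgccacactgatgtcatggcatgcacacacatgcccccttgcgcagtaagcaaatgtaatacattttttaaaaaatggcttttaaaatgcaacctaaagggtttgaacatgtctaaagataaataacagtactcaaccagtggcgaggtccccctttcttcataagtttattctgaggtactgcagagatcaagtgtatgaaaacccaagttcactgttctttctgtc
Rag1: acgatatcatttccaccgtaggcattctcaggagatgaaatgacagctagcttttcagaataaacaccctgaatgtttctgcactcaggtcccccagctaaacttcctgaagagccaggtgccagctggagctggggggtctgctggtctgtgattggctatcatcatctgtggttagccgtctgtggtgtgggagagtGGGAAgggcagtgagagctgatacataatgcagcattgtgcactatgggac
Satb1: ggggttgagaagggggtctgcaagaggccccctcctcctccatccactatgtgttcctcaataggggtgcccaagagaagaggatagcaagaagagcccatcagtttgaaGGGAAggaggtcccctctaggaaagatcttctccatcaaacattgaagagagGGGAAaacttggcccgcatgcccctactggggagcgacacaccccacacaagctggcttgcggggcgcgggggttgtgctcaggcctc
Dntt and Rag1 each held 1 GGGAA and 3 matches to CANNTG, the E-box bound by helix-loop-helix proteins. This Satb1 window held 2 GGGAA and no CANNTG. Of 32817 such windows of all genes, 56.2% held GGGAA and 66.2% held CANNTG, so either motif is the common case. RefSeq windows were found for 9 of the 10 members, Ly6d being without one, and Satb1 had 5, of which 1 is printed. A match is a run of letters and no evidence of binding.

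The 9 libraries held 19237354 to 42780953 UMIs (counted transcript molecules), and 15856 of 32387 barcodes passed the filters on cells. The batches stood apart before any comparison. Of the barcodes, 73.8% were kept in batch 1 and 34.4% in batch 2, the median mitochondrial share of all barcodes was 3.35% and 14.0%, and 71.7% of the 13642 genes tested over all LSK cells differed in level between batches (edgeR adjusted p under 0.05). The edgeR and limma fits below therefore have a batch term, and the aged to young ratio of level within each batch is given for each member. Kit and Ly6a (Sca1), the genes of the sort, had a UMI in 78.4% and 67.9% of cells. Of the genes of lineage markers used in the sort, Itgam (Cd11b) had a UMI in 1339 of 15856 cells (8.44%), Cd5 in 183, Ly6g in 2 and Cd8a in 1. The T-cell genes Trac, Cd3d and Cd3e were found in 367, 66 and 5 cells. Summed levels of the 5 mature B-cell markers ranged from 1.45 to 71.8 CPM (UMIs scaled to a common total per sample) in young, 16.4 to 399.5 in aged and 13.1 to 109.5 in CASIN samples. By batch, these levels were 1.45 to 82.5 CPM in batch 1 and 71.8 to 399.5 CPM in batch 2. Those of 7 T-cell markers were 1.80 to 3.92 CPM in batch 1 and 4.60 to 9.54 CPM in batch 2. A summed level of 10 genes that respond to handling (Fos, Jun and the like) was 3921.5 to 7408 CPM in batch 1 and 834 to 3241 CPM in batch 2. What these differences contribute to the values below was not tested. No more than 16 barcodes were shared by any pair of libraries.

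To compare cells at equal depth, every cell was thinned to 4000 UMIs, which left 15524 cells. Of these, 3785 had a Flt3 UMI and are called Flt3-positive, and the other 11739 had none. A cell without a Flt3 UMI at this depth may still make Flt3 mRNA. Before thinning, a Flt3 UMI was found in 30.9% to 52.3% of these other cells in young samples. Such a UMI was found in 15.04% to 26.7% of them in aged and 16.4% to 26.3% in CASIN samples. Flt3-positive cells made up 35.6%, 39.1% and 21.0% of young 1, 2 and 3, 13.0%, 25.3% and 21.3% of aged 1, 2 and 3, and 19.8%, 24.0% and 13.8% of CASIN 1, 2 and 3. The means were 31.9% ± 9.60 (SD, n = 3) in young, 19.8% ± 6.28 in aged and 19.2% ± 5.13 in CASIN samples. The groups overlapped, since young 3 had a smaller share than aged 2 and 3 (two-sided exact permutation p = 0.3 for aged against young, 0.2 for CASIN against young and 0.8 for CASIN against aged, where 3 against 3 samples cannot go below 0.1). Within batch 1 the aged share was 24.4 percentage points below the young share, whereas within batch 2 it was 2.29 points above it. These means and tests have no batch term. Without thinning, a Flt3 UMI was found in 44.9% to 68.9% of young cells, 25.8% to 44.6% of aged and 27.5% to 40.7% of CASIN cells. At that depth the young samples did not overlap the others, the aged minus young difference was -23.9 points (two-sided exact permutation p = 0.1, the smallest possible), and it was -42.9 points in batch 1 and -2.55 in batch 2. With at least 2 Flt3 UMIs it was -33.4 and -1.18 points in the batches. The size of this difference thus depended on the thinning and the cut-off, and in batch 2 it was negative only without thinning. Without thinning the samples are not at equal depth. The median UMIs per kept cell were 14622, 12519 and 13058 in young and 10563, 11479 and 10270 in aged samples. In CASIN samples they were 13913, 9531.5 and 10087.

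In each sample, 7 of the 10 genes were found in a larger share of the Flt3-positive cells than of the other cells, and these were Dntt, Il7r, Notch1, Satb1, Ikzf1, Blnk and Arpp21 (9 of 9 samples each). Among these 7 genes the median ratio was highest for Arpp21, at a ratio of shares of 6.19 over the 8 samples in which a ratio could be formed, and it was 3.53 for Dntt, 2.82 for Blnk, 2.72 for Satb1 and 2.46 for Il7r (8 samples). It was narrow for Notch1, at 1.62, and for Ikzf1, at 1.40. Ltb was the exception among the widely detected genes, since its share was higher in Flt3-positive cells in 7 of 9 samples by a median ratio of 1.1. These ratios describe the 9 samples and were not tested. Flt3 is not one of the 10 genes, so the split did not use their values. The Flt3-positive cells held 1629 (53.7%) of the 3031 Dntt-positive cells and 62.5% of the 400 Arpp21-positive cells.

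As a check on free RNA, the genes were read in 238 cells with a UMI of both Pf4 and Itga2b, platelet-lineage genes, and none of Flt3. Their median depth before thinning was 11290.5 UMIs, against 12793 in Flt3-positive cells. Dntt was found in 4 of them, 1.68% (95% exact Clopper-Pearson interval 0.460 to 4.25%), against 43.0% of Flt3-positive cells. Satb1 was found in 2.94%, against 33.2%. Il7r, Rag1, Blnk, Ly6d and Arpp21 were found in 0 of 238 cells, which allows a share of up to 1.26% when a count of 0 is taken to allow 3 cells (exact Clopper-Pearson upper limit 1.54%). For Rag1, Blnk, Ly6d and Il7r that limit is above their share of all LSK cells (0.155%, 0.889%, 0.747% and 1.13%), so this check says little about them. Notch1, Ikzf1 and Ltb were found in 6.72%, 18.9% and 23.1% of these cells, and platelet-lineage cells may make these genes themselves. Intervals and limits cover counting error only.

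**Figure D1:**
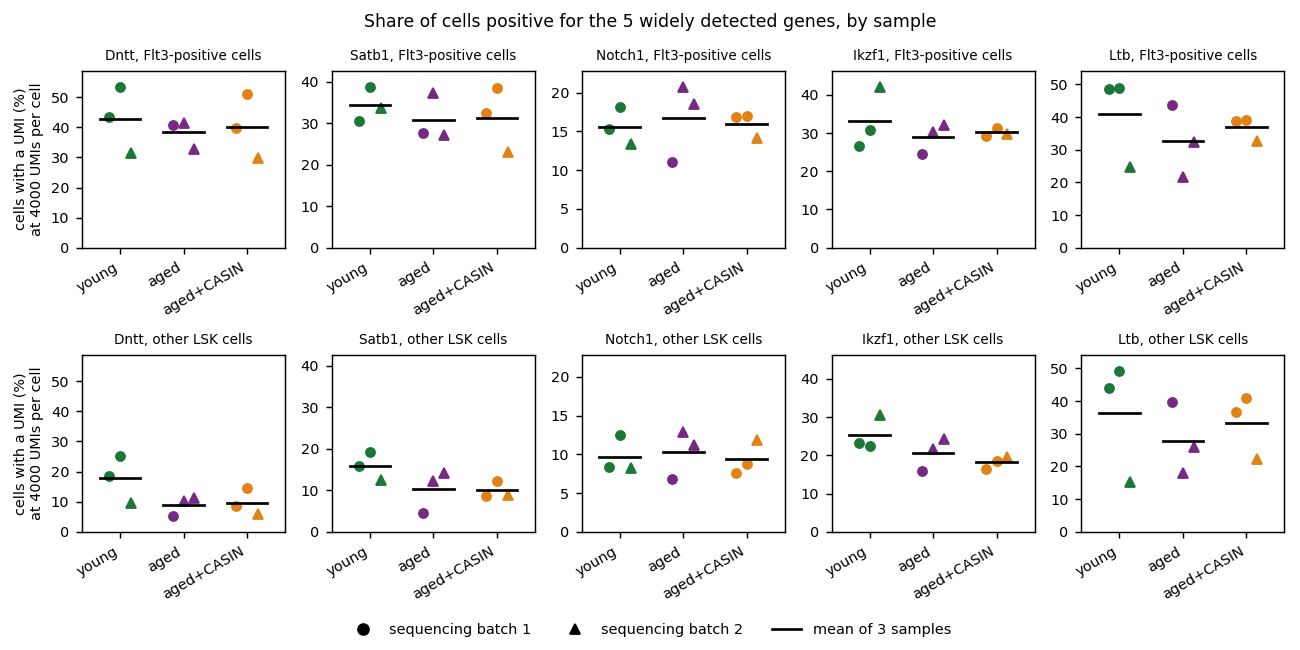
Share of cells with at least 1 UMI (y axis, %, after thinning to 4000 UMIs per cell) for Dntt, Satb1, Notch1, Ikzf1 and Ltb in Flt3-positive cells (top) and other LSK cells (bottom). Each point is 1 sample, circles are batch 1, triangles batch 2, and bars are means of 3 samples. Dntt lies between 29.8% and 53.5% in Flt3-positive cells and between 5.09% and 25.2% in the others, and all batch 1 samples are above all batch 2 samples for Ltb in both classes.

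Dntt, the terminal transferase that adds untemplated nucleotides at antigen receptor joints, was the most widely detected of the genes tied to rearrangement. Over all LSK cells it was found in 27.5%, 36.2% and 14.1% of young 1, 2 and 3, in 9.71%, 18% and 15.8% of the aged samples and in 14.6%, 23.3% and 9.13% of the CASIN samples. Young 1 and 2 were above every other sample, and young 3 was within the range of the aged samples. The change over all LSK cells in log2 level was -0.47 ± 0.52 (SE) for aged over young and -0.69 ± 0.45 for CASIN over young, neither past the threshold (edgeR adjusted p = 0.65 and 0.40).

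Within the Flt3-positive cells the Dntt groups were much closer. The share was 43.5%, 53.5% and 31.6% in young 1, 2 and 3, 40.7%, 41.3% and 32.9% in aged 1, 2 and 3, and 39.7%, 51.2% and 29.8% in CASIN 1, 2 and 3. In each group the lowest of the 3 values came from batch 2. The log2 level differed by 0.03 ± 0.32 (SE) for aged over young, by -0.11 ± 0.32 for CASIN over aged and by -0.08 ± 0.30 for CASIN over young (edgeR adjusted p = 0.99, 0.97 and 0.99). Dntt-positive Flt3-positive cells held 4.62, 4.68 and 3.22 Dntt UMIs per cell in young, 4.06, 3.40 and 2.34 in aged and 4.22, 4.71 and 3.06 in CASIN samples. On the log2 scale that content changed by -0.19 ± 0.12 (SE) for aged over young (limma adjusted p = 0.79). Both parts, the share of positive cells and the content of a positive cell, thus overlapped between the groups.

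In the other LSK cells Dntt was found in 18.7%, 25.2% and 9.46% of young, 5.09%, 10.1% and 11.2% of aged and 8.46%, 14.5% and 5.82% of CASIN samples. The log2 level differed by -0.71 ± 0.60 (SE) for aged over young and -0.91 ± 0.51 for CASIN over young (edgeR adjusted p = 0.52 and 0.30). Within batch 1 the aged level was 2.06 log2 units below the young level, and within batch 2 it was 0.38 units above it. The change between ages was not shown to differ between the 2 classes of cells, since the class difference was 0.79 ± 0.51 (edgeR adjusted p = 0.60). The share of Dntt-positive cells among the other cells differed by -0.70 ± 0.29 on the logit scale for CASIN over young (limma adjusted p = 0.17), and passed the threshold without aged 1 (-0.70, adjusted p = 0.0049) or without young 3 (-1.04, adjusted p = 0.036). Aged 1 enters that contrast only through the shared spread and batch terms. Young 3 is the only young sample of batch 2, so without it all young samples were of batch 1. Over all LSK cells the share of Dntt-positive cells also passed without aged 1 (-0.64, limma adjusted p = 0.0091). These calls with a sample left out were not compared with a share of all genes.

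Dntt also differed between the sequencing batches. In Flt3-positive cells its log2 level fell by 1.06 ± 0.27 (SE) in batch 2 (edgeR adjusted p = 0.012), and both parts of it fell, the share of positive cells (-0.51 ± 0.13 on the logit scale, limma adjusted p = 0.0023) and the UMIs per positive cell (-0.53 ± 0.10 on the log2 scale, limma adjusted p = 0.00035). Of all genes tested in these cells 67.8% differed between the batches in level, 56.1% in share and 30.2% in UMIs per positive cell, so Dntt is not set apart by this.

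Rag1, one of the 2 subunits of the recombinase that cuts antigen receptor genes, was the rarest member. Over all LSK cells 24 cells at 4000 UMIs had it. The counts were 5, 8 and 2 cells in young, 1, 1 and 1 in aged and 1, 5 and 0 in CASIN samples. In CASIN 3 the 0 of 2354 cells allows a share of up to 0.127%. Rag1 gave 34, 37 and 5 UMIs at full depth in young, 2, 3 and 8 in aged and 5, 30 and 2 in CASIN samples. It passed the filter on low counts over all LSK cells only, where the log2 change was -1.18 ± 0.97 (SE) for aged over young and 0.69 ± 1.00 for CASIN over aged (edgeR adjusted p = 0.52 and 0.99). Within batches the log2 ratio of aged to young was -3.30 and -0.11.

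Il7r, the receptor chain for interleukin-7 that supports lymphoid precursors, was found in 34, 54 and 3 cells of young 1, 2 and 3, which is 1.60%, 2.48% and 0.255%. The aged samples held 3, 12 and 5 such cells (0.195%, 0.732% and 0.299%) and the CASIN samples 8, 53 and 4 (0.723%, 3.05% and 0.170%). Young 1 and 2 and CASIN 2, all of batch 1, were above the rest, and the remaining samples held 12 cells or fewer. The log2 level over all LSK cells differed by -0.67 ± 1.06 (SE) for aged over young and by 0.37 ± 1.08 for CASIN over aged (edgeR adjusted p = 0.77 and 0.99). Within batches 1 and 2 the log2 ratio of aged to young was -2.87 and 0.48, and that of CASIN to aged 2.77 and -1.77. In the other LSK cells the values were -1.86 ± 1.18 and 1.64 ± 1.20 (edgeR adjusted p = 0.38 and 0.99), with 163 of the Il7r UMIs of CASIN samples in CASIN 2 and 14 and 11 in CASIN 1 and 3. In Flt3-positive cells they were 0.08 ± 0.94 and 0.04 ± 0.99. There Il7r fell by 2.36 ± 0.83 on the log2 scale in batch 2 (edgeR adjusted p = 0.047).

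Notch1, the receptor whose signal directs progenitors to the T lineage, was found in 10.8%, 14.7% and 9.35% of young, 7.36%, 14.8% and 12.8% of aged and 9.40%, 10.7% and 12.1% of CASIN LSK cells, and the 3 groups overlapped throughout. The log2 level over all LSK cells differed by -0.06 ± 0.27 (SE) for aged over young and -0.12 ± 0.27 for CASIN over aged (edgeR adjusted p = 0.93 and 0.99), and by 0.09 ± 0.23 between batches. A Notch1-positive cell held 1.11 to 1.23 UMIs at 4000 UMIs in all samples.

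Satb1, a chromatin organiser that promotes lymphoid lineage genes, was lowest in aged 1. It was found in 21.0%, 26.9% and 16.8% of young LSK cells, 7.49%, 18.6% and 16.9% of aged and 13.4%, 18.6% and 10.9% of CASIN LSK cells. Aged 2 and 3 were above young 3, so the young and aged groups overlapped. In Flt3-positive cells the share was 30.4%, 38.8% and 33.6% in young, 27.6%, 37.2% and 27.2% in aged and 32.4%, 38.5% and 23.1% in CASIN samples, and the log2 level differed by 0.14 ± 0.28 (SE) for aged over young and by -0.15 ± 0.29 for CASIN over aged (edgeR adjusted p = 0.92 and 0.95). In the other cells it was found in 15.7%, 19.3% and 12.4% of young, 4.49%, 12.3% and 14.1% of aged and 8.68%, 12.3% and 8.97% of CASIN samples, and the log2 level differed by -0.59 ± 0.39 and -0.71 ± 0.34 for aged and CASIN over young (edgeR adjusted p = 0.40 and 0.23). Without aged 1 the second of these passed the threshold (-0.68, edgeR adjusted p = 0.021), as did the logit share there (-0.52, limma adjusted p = 0.0093) and over all LSK cells (-0.50, adjusted p = 0.011). Without young 3 the aged share of the other cells passed it (-1.05, limma adjusted p = 0.044). The class difference of 0.73 ± 0.21 for aged over young did not pass it (edgeR adjusted p = 0.20), although without young 3 it was 1.12 with an adjusted p of 1.67e-05. For CASIN over young it was 0.69 ± 0.19 (edgeR adjusted p = 0.12), and 0.94 without young 3 (adjusted p = 5.02e-06) and 0.69 without aged 1 (adjusted p = 0.011). Young 3 is the only young sample of batch 2. Without it, young samples are compared within a batch in batch 1 only, where aged 1 is the single aged sample. The Satb1 calls with a sample left out were not compared with a share of all genes.

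Ikzf1 was the one member whose level differed between the groups past the threshold. In the other LSK cells its level was 67.0, 66.0 and 94.4 CPM in young 1, 2 and 3, 45.3, 66.1 and 66.7 CPM in aged 1, 2 and 3, and 47.6, 53.3 and 61.0 CPM in CASIN 1, 2 and 3. Young 3 was the highest of all samples and aged 1 and CASIN 1 were the lowest, while young 1 and 2, aged 2 and aged 3 were close together. With the batch term the log2 level fell by 0.49 ± 0.09 (SE) in aged and by 0.49 ± 0.09 in CASIN against young samples (edgeR adjusted p = 0.019 and 0.014). Of all 13277 genes tested there, 5.44% were called for aged over young (1.16% lower in aged) and 7.01% for CASIN over young (1.62% lower in CASIN). In both batches the direction was the same, with log2 ratios of aged to young of -0.55 in batch 1 and -0.51 in batch 2, and of CASIN to young of -0.40 and -0.63. CASIN and aged samples differed by -0.00 ± 0.09 (edgeR adjusted p = 1.00). Cells with Flt3 seen only before thinning made up more of the other cells in young samples, as given above. With Flt3-positive called by 1 or by 2 UMIs at full depth, the Ikzf1 level in the other cells still passed the threshold in both comparisons with young samples. The part of these cells in the Ikzf1 change was not tested further. Stem-cell markers also differed between these groups. Procr was found in 21.1%, 18.1% and 24.5% of the other cells in young, 35.5%, 36.4% and 35.4% in aged and 33.3%, 26.6% and 40.5% in CASIN samples, so that the aged minus young share was 15.9 points in batch 1 and 11.4 in batch 2. The summed level of 6 stem-cell markers in these cells was 353 to 515 CPM in young, 508 to 1018 in aged and 752 to 831 in CASIN samples. Split by Procr, the Ikzf1 share was 22.5% ± 6.08 (SD, n = 3), 19.2% ± 4.10 and 15.4% ± 1.48 in young, aged and CASIN Procr-positive cells, and 26.1% ± 4.30, 21.3% ± 4.30 and 19.5% ± 2.20 in Procr-negative cells. The young mean was the highest in both, but these means have no batch term and their differences were not tested. In Procr-positive cells the share was 20.1%, 17.9% and 29.4% in young and 15.2%, 19.1% and 23.4% in aged samples. In Procr-negative cells it was 24.0%, 23.3% and 31.1% in young and 16.5%, 23.0% and 24.6% in aged samples. Young and aged samples thus overlapped in both, while every CASIN sample was below every young sample.

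The share of Ikzf1-positive cells fell as well, and the content of a positive cell did not pass the test. In the other LSK cells it was found in 23.2%, 22.3% and 30.6% of young, 16%, 21.6% and 24.2% of aged and 16.3%, 18.5% and 19.6% of CASIN cells at 4000 UMIs. On the logit scale the share fell by 0.39 ± 0.10 (SE) in aged and by 0.42 ± 0.09 in CASIN samples (limma adjusted p = 0.048 and 0.021, where 3.43% and 5.7% of the 13277 genes were called, 0.783% and 1.58% as lower). A positive cell held 1.08 to 1.22 UMIs, and this content differed by -0.08 ± 0.03 and -0.07 ± 0.03 on the log2 scale (limma adjusted p = 0.48 for both). At 4000 UMIs most positive cells hold a single UMI, so the content of a cell can hardly be told from its being positive. Over all LSK cells the level fell by 0.45 ± 0.11 in aged samples (edgeR adjusted p = 0.048, with 4.02% of 13642 genes called, 0.579% as lower) and differed by -0.43 ± 0.10 in CASIN samples (adjusted p = 0.050, just short of the threshold, with 4.08% called).

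In Flt3-positive cells Ikzf1 was found in 26.6%, 30.7% and 42.1% of young, 24.6%, 30.2% and 32% of aged and 29.2%, 31.3% and 29.8% of CASIN cells. The log2 level differed by -0.21 ± 0.13 (SE) for aged and by -0.12 ± 0.13 for CASIN over young (edgeR adjusted p = 0.62 and 0.93), where 0.553% and 0.187% of 11220 genes were called. In batch 1 the ratio of CASIN to young was 0.05 on the log2 scale and in batch 2, with a single young sample, -0.53. The class difference was tested directly. For CASIN over young, the log2 change in Flt3-positive cells was 0.36 ± 0.10 above that in the other cells (edgeR adjusted p = 0.040, with 2.42% of 13420 genes called), and for aged over young it was 0.27 ± 0.10 above it and not past the threshold (adjusted p = 0.26, with 0.44% called).

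These Ikzf1 calls were close to the threshold. The call for the level over all LSK cells in aged over young held under 7 of 19 alternatives, and that for the share in the other cells under 5 of 14 for aged and 8 of 14 for CASIN over young, with the same direction in all of them. For the level in the other cells the direction held under all 22 alternatives and the call under 16 of them for each of aged and CASIN over young, with adjusted p between 0.000209 and 0.823 for aged and between 5.8e-05 and 0.785 for CASIN. Ikzf1 was also higher in batch 2 than in batch 1 in the other cells (edgeR adjusted p under 0.05). Without the batch term the adjusted p for aged and CASIN over young was 0.82 and 0.79, and without cells of over 5% mitochondrial UMIs it was 0.11 and 0.10. Without young 1 it was 0.079 and 0.083, and without young 2 0.076 and 0.082. The aged call was also lost without aged 1 (0.088), and the CASIN call without CASIN 1 (0.062) or CASIN 3 (0.091).

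**Figure D2:**
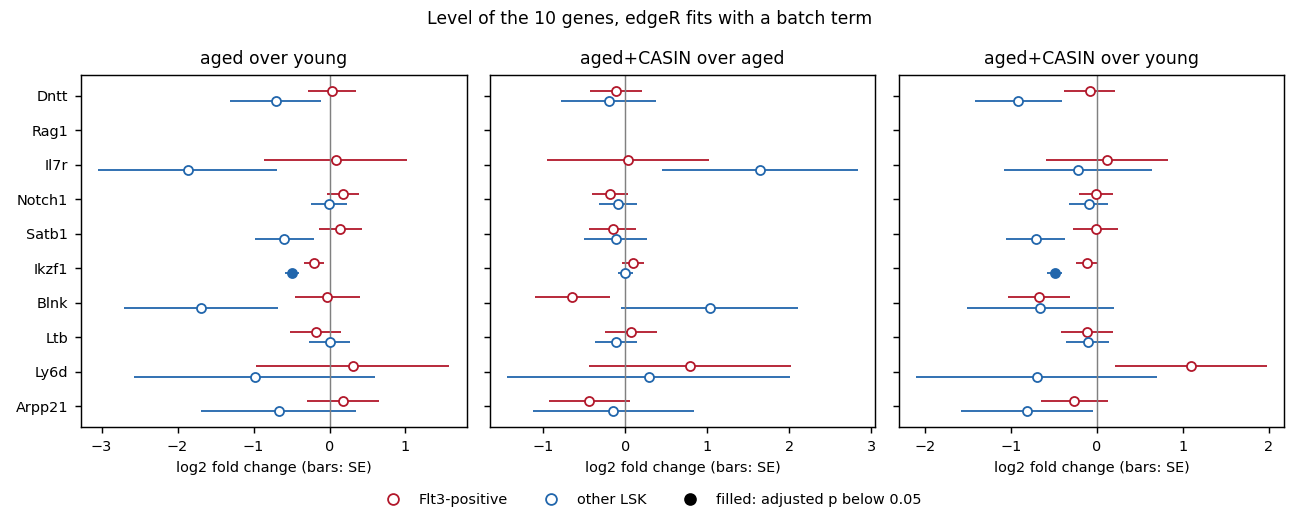
Log2 fold change of level (x axis) of the 10 genes for aged over young, CASIN over aged and CASIN over young, fitted with edgeR and a batch term. Red points are Flt3-positive cells, blue points other LSK cells, bars are 1 SE and filled points have an adjusted p under 0.05. The filled points are those of Ikzf1 in the other cells, at -0.49 in both comparisons with young samples, and Rag1 has no point because it did not pass the filter on low counts.

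Blnk, the adaptor that couples the pre-B and B-cell receptors to their signal, was found in 23, 34 and 7 young, 7, 10 and 14 aged and 7, 33 and 3 CASIN cells of all LSK cells. As shares these were 1.08%, 1.56% and 0.595% in young, 0.456%, 0.610% and 0.837% in aged and 0.633%, 1.90% and 0.127% in CASIN samples. CASIN 2 was the highest and CASIN 3 the lowest of the 9 samples, so the CASIN group spanned the other groups. The log2 level over all LSK cells differed by -0.92 ± 0.82 (SE) for aged over young and 0.21 ± 0.89 for CASIN over aged (edgeR adjusted p = 0.56 and 0.99). Within batches 1 and 2 the log2 ratio of aged to young was -2.38 and -0.54, and that of CASIN to aged 2.10 and -1.96. Among the other LSK cells the change for CASIN over young was -0.66 ± 0.85 with all samples and -2.55 without CASIN 2 (edgeR adjusted p = 0.66 and 0.039). In Flt3-positive cells Blnk fell by 0.97 ± 0.37 in batch 2 (edgeR adjusted p = 0.028).

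Ltb, lymphotoxin beta, was found in 45.7%, 49.2% and 17.3% of young, 40.3%, 19.0% and 27.3% of aged and 37.2%, 40.5% and 23.7% of CASIN LSK cells. The 5 samples of batch 1 lay between 37.2% and 49.2% and the 4 of batch 2 between 17.3% and 27.3%, whereas the groups overlapped. Its log2 level over all LSK cells fell by 1.19 ± 0.23 (SE) in batch 2 (edgeR adjusted p = 0.0017) and differed by -0.03 ± 0.27 for aged over young and -0.09 ± 0.26 for CASIN over aged (adjusted p = 0.97 and 0.99). The ratio of aged to young had opposite signs in the batches, -0.41 in batch 1 and 0.55 in batch 2 on the log2 scale. Of the cells with the stem-cell gene Procr and no Flt3, 35.9% had Ltb and 4.71% had Dntt.

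Ly6d was found in 14, 24 and 4 young, 7, 7 and 8 aged and 5, 42 and 5 CASIN cells, so 42 of the 116 Ly6d-positive cells came from CASIN 2. In that sample they were 2.41% of LSK cells, against 0.212% to 1.1% in the other 8. At full depth 60 of 209 Ly6d-positive cells held 10 or more UMIs and these held 83.6% of all Ly6d UMIs, while 86 cells held only 1. Cells with 10 or more were present in every sample except CASIN 3, with 8, 17 and 2 in young, 4, 3 and 2 in aged and 2 and 22 in CASIN 1 and 2. The log2 level over all LSK cells differed by -0.44 ± 1.14 (SE) for aged over young and 0.29 ± 1.23 for CASIN over aged (edgeR adjusted p = 0.87 and 0.99), with errors wide enough to hold a large change either way. Within batches 1 and 2 the log2 ratio of aged to young was -1.80 and -0.13, and that of CASIN to aged 2.15 and -2.62. Outside the Flt3-positive class the change for CASIN over young was -0.70 ± 1.40 with all samples and -5.23 without CASIN 2 (edgeR adjusted p = 0.79 and 0.025), a value that then rested on 3 and 7 UMIs in CASIN 1 and 3.

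Arpp21 was found in 100, 144 and 5 young, 22, 21 and 7 aged and 21, 73 and 7 CASIN cells, which is 4.71%, 6.61% and 0.425% in young, 1.43%, 1.28% and 0.419% in aged and 1.90%, 4.20% and 0.297% in CASIN samples. Young 3, aged 3 and CASIN 3, all of batch 2, were the lowest of their groups. Its log2 level over all LSK cells fell by 2.76 ± 0.68 (SE) in batch 2 (edgeR adjusted p = 0.0072), the largest batch difference of the 10 genes, and differed by -0.27 ± 0.79 for aged over young and -0.48 ± 0.78 for CASIN over aged (adjusted p = 0.89 and 0.99). Within batch 1 the aged level was 1.86 log2 units below the young level, and within batch 2 it was 1.56 units above it.

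**Figure D3:**
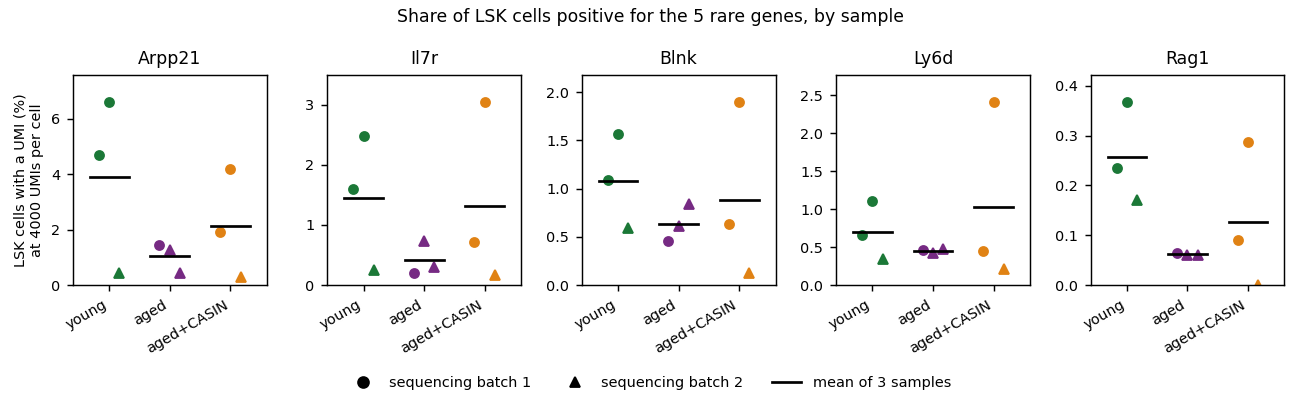
Share of LSK cells with at least 1 UMI (y axis, %, at 4000 UMIs per cell, each panel with its own scale) for Arpp21, Il7r, Blnk, Ly6d and Rag1. Each point is 1 sample, circles are batch 1, triangles batch 2, and bars are means of 3 samples. CASIN 2 is the highest sample for Il7r, Blnk and Ly6d, at 3.05%, 1.90% and 2.41%.

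Over the 10 genes, the count past the threshold was 0 or 1 in every comparison. For the level in aged over young, 1 of 10 tested over all LSK cells fell, 0 of 9 passed in Flt3-positive cells (0 also at an unadjusted p under 0.05) and 1 of 9 fell in the other cells, in each case Ikzf1. Of all genes tested, 4.02% were called over all LSK cells (0.579% lower), 0.553% in Flt3-positive cells and 5.44% in the other cells (1.16% lower). For CASIN over young the counts were 0 of 10 (1 unadjusted, Ikzf1), 0 of 9 (0 unadjusted) and 1 of 9, beside 4.08%, 0.187% and 7.01% of all genes. For the share of positive cells Ikzf1 in the other cells was again the one member past the threshold (limma), while over all LSK cells, where 2.32% and 3.72% of genes were called for aged and CASIN over young, and in Flt3-positive cells, where 0.107% and 0.116% were, no member was. For CASIN over aged no member passed in any class with edgeR, DESeq2 or limma, and no member had an unadjusted p under 0.05 in any of the fits. Over all genes 0 of 13642, 0 of 11220 and 0 of 13277 were called with edgeR in that comparison (0%), and 0.00745% of genes for the class difference, while 3.14%, 5.86% and 3.22% had an unadjusted p under 0.05. The median log2 change of the members for aged over young was -0.45 over all LSK cells, 0.08 in Flt3-positive cells and -0.67 in the other cells, against 0.01, 0.02 and 0.01 over all genes tested. For CASIN over aged these medians were -0.03, -0.11 and -0.09, against -0.01, -0.02 and -0.01 over all genes tested. In Flt3-positive cells the level of 5 of 9 members fell in batch 2 (Dntt, Il7r, Arpp21, Blnk and Ltb) and none rose, against 33.6% of all genes that fell. Over all LSK cells Arpp21 and Ltb fell in batch 2 and Ikzf1 rose (edgeR adjusted p under 0.05), where 71.7% of genes were called. The same members passed in the other cells, with the same directions.

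The content of a positive cell could be tested only for Dntt, Satb1, Notch1, Ikzf1 and Ltb, which had 10 or more positive cells in each sample. None passed the threshold between groups in any class (limma), where 0.0299%, 0.135% and 0.0104% of all genes were called for aged over young over all LSK, Flt3-positive and other cells, and 0%, 0.0677% and 0% for CASIN over young. For CASIN over aged 0%, 0.0169% and 0% were called. At an unadjusted p under 0.05, Ikzf1 passed over all LSK cells, Notch1 and Satb1 in Flt3-positive cells and Ikzf1 and Ltb in the other cells for aged over young, and Ikzf1 and Ltb in the other cells for CASIN over young. These unadjusted passes were not compared with a share of all genes, and their directions differed. For aged over young in batches 1 and 2, the log2 ratio of content was -0.13 and -0.06 for Ikzf1 over all LSK cells. In Flt3-positive cells it was 0.37 and 0.01 for Notch1 and 0.06 and 0.20 for Satb1. In the other cells it was -0.12 and -0.03 for Ikzf1 and -0.33 and 0.01 for Ltb.

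For 6 of the 10 members (Dntt, Il7r, Notch1, Satb1, Ltb and Arpp21) the aged-to-young ratio of level over all LSK cells had opposite signs in the batches. In batch 1, with 1 aged and 2 young samples, the log2 ratio of level over all LSK cells was -1.66 for Dntt, -1.42 for Satb1, -0.69 for Notch1 and -0.41 for Ltb, and Flt3 itself was at -1.43. In batch 2, with 2 aged samples and 1 young, the same ratios were 0.40, 0.28, 0.57 and 0.55, and Flt3 was at 0.24. The comparison of CASIN with aged samples turned in the same way. Its ratio for Dntt was 0.89 in batch 1 and -0.78 in batch 2, that for Satb1 0.90 and -0.80, and that for Flt3 0.75 and -0.61. Aged 1, the single aged sample of batch 1, enters both comparisons. Ikzf1 kept 1 sign between aged and young, with -0.55 and -0.47. So did the level of the rare genes Blnk (-2.38 and -0.54), Ly6d (-1.80 and -0.13) and Rag1 (-3.30 and -0.11). At 4000 UMIs, however, the log2 ratio of shares was -1.54 and 0.28 for Blnk and -0.95 and 0.41 for Ly6d. Their sign was thus kept in level only. For Rag1 that ratio was -2.21 and -1.49, and its level in aged 1 rested on 2 UMIs.

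**Figure D4:**
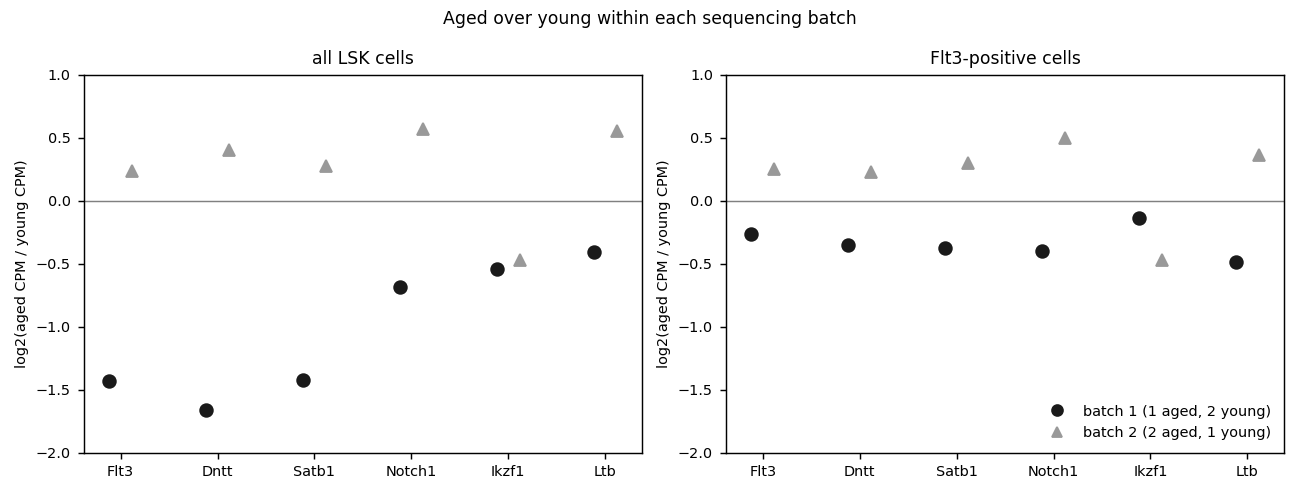
Log2 ratio of the mean level in aged to that in young samples (y axis) within sequencing batch 1 (black circles, 1 aged and 2 young samples) and batch 2 (grey triangles, 2 aged and 1 young), over all LSK cells (left) and Flt3-positive cells (right). Over all LSK cells Dntt is at -1.66 and 0.40, and Ikzf1 at -0.55 and -0.47.

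Because the members are more frequent in Flt3-positive cells, and that share varied from 13.0% to 39.1%, the share of positive cells was recomputed with the Flt3-positive share fixed at its mean of 23.6% in every sample. The aged minus the young mean of Dntt was then -7.91 percentage points, and -11.4 points as measured. That of Satb1 was -5.03 and -7.22 points, and that of Arpp21 -2.11 and -2.87. That of Ltb was -8.30 and -8.56 points, and that of Ikzf1 -4.65 and -5.44. The CASIN mean of Dntt was 1.06 points above the aged mean at the fixed share and 1.19 above it as measured. These are differences of group means with no batch term and no test, and 2 of 3 young but 1 of 3 aged samples are in batch 1. Cells with Flt3 seen only before thinning count as other cells here. Their share of the other cells was higher in every young sample than in any aged or CASIN sample, as given above. What they contribute to these differences was not tested. For Ltb the measured aged minus young difference was -7.19 points in batch 1 and 5.82 in batch 2, and its fitted log2 change with the batch term was -0.03, as given above. In bulk sums such as the levels over all LSK cells, fewer cells of a type and less RNA per cell cannot be told apart.

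Most cells with a rare member also had Dntt. At 4000 UMIs, 158 of 176 Il7r-positive cells (89.8%) also had Dntt, as did 20 of 24 Rag1-positive, 86 of 116 Ly6d-positive, 100 of 138 Blnk-positive and 326 of 400 Arpp21-positive cells, against 19.5% of all cells. In the other direction 5.21% of Dntt-positive cells had Il7r, 10.8% had Arpp21 and 0.660% had Rag1, against 0.144%, 0.592% and 0.0320% of Dntt-negative cells. Of the 24 Rag1-positive cells, 14 had Ly6d, 11 had Blnk, 8 had Il7r and 14 had Cd79a, the signalling chain of the B-cell receptor. Cd79a was found in 26.7% of Ly6d-positive, 20.3% of Blnk-positive and 12.5% of Il7r-positive cells, against 0.432% of all cells. Siglech, a plasmacytoid dendritic cell gene, was found in 8.62% of Ly6d-positive and 1.70% of Il7r-positive cells, against 0.103% of all. Procr was found in 2.84% of Il7r-positive and 0% of Rag1-positive cells, against 27.5% of all. Doublets were not removed. Scrublet marked 0.423% of cells, and how many doublets it missed is not known. The part of doublets in these shares was not tested.

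The widely detected members overlapped less with Dntt. Of Ltb-positive cells 18.8% had Dntt, near the 19.5% of all cells, and 30.2% had Procr. Of Ikzf1-positive cells 26.9% had Dntt and 23.0% had Procr. Of Notch1-positive cells 33.7% had Dntt, and of Satb1-positive cells 47.6%.

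**Figure D5:**
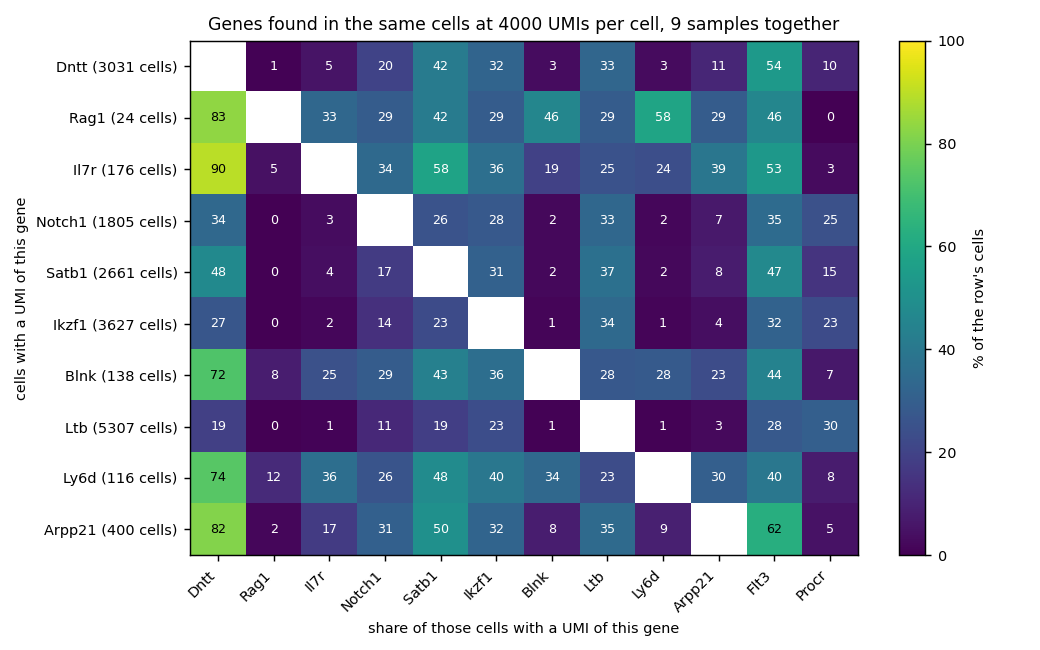
Of the cells with a UMI of the gene in each row (number of cells in brackets), the share with a UMI of the gene in each column (colour and digits, %), at 4000 UMIs per cell over the 9 samples together. The Dntt column is bright for Il7r, Rag1, Arpp21, Ly6d and Blnk, at 72.5% to 89.8%, and dark for Ltb, at 18.8%.

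Counting how many of Dntt, Il7r, Rag1, Blnk, Ly6d and Arpp21 a cell held, cells with 2 or more made up 4.99%, 7.35% and 0.765% of young, 1.56%, 2.32% and 0.897% of aged and 2.08%, 6.09% and 0.340% of CASIN samples. Cells with 3 or more were 26, 52 and 3 in young, 3, 4 and 3 in aged and 8, 47 and 0 in CASIN samples. Young 1, young 2 and CASIN 2, all of batch 1, held most of these cells. Among Dntt-positive cells the share with Il7r was 4.97%, 6.46% and 1.20% in young, 2.01%, 3.39% and 1.51% in aged and 4.32%, 12.1% and 1.40% in CASIN samples. CASIN 2 was the highest and the 3 groups overlapped.

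By likeness across Flt3-positive cells (the mean over the 9 samples of Pearson's r of log2(UMIs + 1) within a sample, given as a description), the genes closest to Dntt among 7077 were H2afy, a histone variant gene, at 0.46, Plac8 at 0.43, Ighm, the immunoglobulin heavy chain constant region, at 0.40, Il12a at 0.35 and Cox6a2 at 0.33. All 5 had a positive r in 9 of 9 samples. Among the members Arpp21 was at 0.28, Satb1 at 0.23, Notch1 at 0.19 and Ikzf1 at 0.08, and Ltb was at -0.10, with a negative r in all 9. For Il7r, among 9440 genes, the closest were Arpp21 at 0.29, Cox6a2 at 0.25, Dntt at 0.25, Ighm at 0.17 and Irf8 at 0.16. Only Dntt and Ighm of these had a positive r in all 9 samples. Il7r was found in 20, 33 and 1 Flt3-positive cells of young, 3, 8 and 2 of aged and 5, 21 and 1 of CASIN samples. Its r thus rested on very few cells in some samples, and that for Cox6a2 ran from -0.007 to 0.69. Cells of a sample share its depth and its free RNA.

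Of 80 further lymphoid genes on 5 lists, the calls with age were as follows. On the list of interleukin-7 receptor signalling, Mcl1, Cish and Pim1, a survival factor, a feedback inhibitor and a kinase induced by cytokine receptors in general, rose in aged over young samples, over all LSK cells and in the other cells (3 of 12 tested, 0 fell, beside 4.02% and 5.44% of all genes called in either direction). Mcl1 in the other cells was 375, 387 and 310.5 CPM in young, 552, 478 and 425 in aged and 505, 432 and 335 in CASIN samples, a log2 change of 0.57 ± 0.09 (SE, edgeR adjusted p = 0.013). Il7r itself was found in 1.13% of LSK cells. In Flt3-positive cells no gene of this list passed (edgeR, 6 of 12 at an unadjusted p under 0.05), beside 0.553% of all genes called at the adjusted threshold. The summed level of the handling genes was 1754 to 7408 CPM in aged and 834 to 4245 CPM in young samples, and its part in these changes was not tested. On the list of lymphoid transcription factors Gata3, a T and innate lymphoid factor, rose over all LSK cells (1 of 16 tested, 0.93 ± 0.20, edgeR adjusted p = 0.034) and Foxo1 rose in the other cells (1 of 15, 0.49 ± 0.11, edgeR adjusted p = 0.033), beside the same 4.02% and 5.44%. None of the 20 genes of recombination and antigen receptors and none of the 11 tested Notch pathway genes passed the threshold between ages over all LSK cells (edgeR, 5 and 1 at an unadjusted p under 0.05). The unadjusted counts for aged over young were not compared with a share of all genes.

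Among other early lymphoid genes 3 of 18 fell over all LSK cells in aged samples (Lax1, Il12a and Rhoh) and 1 rose (Tmem176b), and in the other cells 5 fell and 1 rose, while of all genes 0.579% and 1.16% were called as lower. Lax1, an adaptor that damps lymphocyte receptor signals, was 32.1, 31.3 and 28.3 CPM in young, 13.3, 13.7 and 14.3 CPM in aged and 18.3, 19.7 and 14.4 CPM in CASIN samples over all LSK cells. The aged samples did not overlap the young ones and the log2 level fell by 1.07 ± 0.12 (SE, edgeR adjusted p = 0.0055). In Flt3-positive cells Lax1 was the one of 17 genes that changed, and it fell by 0.98 ± 0.16 (edgeR adjusted p = 0.0082). The median log2 change of the 18 genes was -0.40 over all LSK cells, and of the 17 in Flt3-positive cells -0.01, against 0.01 and 0.02 over all genes tested. Il12a over all LSK cells fell by 1.22 ± 0.20 (edgeR adjusted p = 0.021), from 106, 131 and 42.2 CPM in young to 54.2, 14.2 and 19.0 CPM in aged samples, with 57.6, 96.6 and 24.1 CPM in CASIN samples. No gene of the 5 lists passed the threshold for CASIN over aged in any class (0 by edgeR). Over all LSK cells 1 of 16, 2 of 12, 0 of 20, 0 of 11 and 1 of 18 had an unadjusted p under 0.05 there, beside 3.14% of all genes.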

How the data were processed

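The authors mapped reads to GRCm38/mm10 (Ensembl 93 annotation) with Cell Ranger 3.1.0 (10x 3' v3 chemistry) and deposited 1 matrix of raw UMI counts per sample. Barcodes with over 10% mitochondrial UMIs, over 6000 genes, under 1000 or over 40000 UMIs, or a gene number too far (over 0.4) from that predicted by depth were removed, as in the study, which left 15856 cells. Doublets were not removed. Cells under 4000 UMIs enter sums over all LSK cells but neither class. UMIs were summed per sample and class and fitted with edgeR 4.0.16 (TMM, filterByExpr, quasi-likelihood test, 9 samples, batch term). Logit shares of positive cells (offset 0.5) and log2 UMIs per positive cell were fitted with limma 3.58.1. Benjamini-Hochberg adjustment ran over all genes tested, with a threshold of 0.05. Levels are not compared between genes. The steps were tested on simulated data that held no difference between batches, so their behaviour with such a difference was not tested. The 10 genes, the 5 gene lists and the tests were chosen with earlier results of these data known. Named genes were the members, Flt3 and Procr, up to 3 genes per list with the lowest adjusted p in aged over young or CASIN over aged, and the 5 genes most like Dntt and Il7r, and the other genes named (Tmem176b, Cd79a, Siglech and marker genes) were chosen after their values were seen. Alternatives were DESeq2 1.42.0, other scalings, filters, Flt3 cut-offs, thinning and samples, and 2 chosen after seeing the data.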

Additional observations from a re-analysis of the deposited data

Results flagged for a closer look

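Ikzf1 was picked out because its change differed between the 2 classes of cells under the same contrast, by the class by group term. For CASIN over young the log2 change was 0.36 ± 0.10 (SE) higher in Flt3-positive than in other LSK cells (edgeR adjusted p = 0.040). The change was -0.12 ± 0.13 in Flt3-positive and -0.49 ± 0.09 in other cells. Over 10 alternatives the difference lay between 0.29 and 0.48 and was past the threshold in 4, with adjusted p from 0.0061 to 0.34. In batch 1 the log2 ratio of CASIN to young was 0.05 in Flt3-positive and -0.40 in other cells, and in batch 2, with 1 sample of each group, -0.53 and -0.63. The part of the batch in this difference was not tested.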

How the results depend on the processing

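The number of members past the threshold depended on the settings. For Ikzf1 in aged over young over all LSK cells it went from 1 to 0 without the batch term, with the replicate block, with only the 2 groups compared, with the mitochondrial limit of 5% and without Scrublet doublets. In CASIN over young over all LSK cells it went from 0 to 1 (Ikzf1) with DESeq2, DESeq2 size factors, no filter on low counts, only the 2 groups compared, the top 5% of doublet scores left out and shared barcodes left out (the last 2 chosen after seeing the data). In the other cells it went from 1 to 0 without the batch term and with the mitochondrial limit of 5% in both comparisons with young samples, and with the replicate block in aged over young, and from 1 to 2 (Ikzf1 and Satb1) with only the 2 groups compared in CASIN over young. For shares over all LSK cells the count went from 0 to 3 without thinning and to 1 with the second draw in aged over young, and from 0 to 5 without thinning and to 1 at 2000 UMIs and with the second draw in CASIN over young. For shares in the other cells it went from 1 to 0 without the batch term and at 2000 UMIs and to 3 without thinning in both, and to 0 with the replicate block in aged over young. Without thinning the samples differ in depth, and every young sample had a higher median depth than every aged sample. The counts of members under the alternatives were not compared with the shares of all genes called under the same settings. Leaving out 1 replicate gave counts of 0 to 1 in aged over young and 0 to 3 in CASIN over young for levels and shares, and 0 to 2 for class differences. No member passed for CASIN over aged under any alternative run. The share of Flt3-positive cells in CASIN minus aged samples went from -0.63 percentage points to 0.33 at 2000 UMIs and 0.99 with at least 2 Flt3 UMIs at full depth. Of 3862 values of single members under an alternative, 3172 kept direction and call, 45 lost the call, 42 gained it, 603 changed sign with no call on either side and 0 changed sign with a call. The block was a setting only, and it changed no other count. Same-numbered samples deviated together (r = 0.77 to 0.91) where they shared a batch and apart (r = -0.65 in both cases) where they did not. These deviations hold the difference between batches, so they cannot tell whether same-numbered samples are paired. Depth limits Rag1, Il7r, Blnk and Ly6d, which had 24 to 176 positive cells.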
